A study of Mus musculus with 4 samples.

Results

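The genes of the tumour necrosis factor (TNF) receptor family through which B cells and plasma cells receive survival and help signals were followed in mouse blood mononuclear cells. A set of 8 genes was taken by symbol from the 32285 genes in the deposited matrices, and all 8 were detected. The set holds the receptors Tnfrsf13b (TACI), Tnfrsf13c (BAFF-R) and Tnfrsf17 (BCMA), the ligands Tnfsf13b (BAFF) and Tnfsf13 (APRIL), and the related receptors Cd40, Tnfrsf8 (CD30) and Cd27. Their yields ran from 336 unique molecular identifiers (UMIs, counted RNA molecules) for Tnfsf13b to 7729 for Tnfrsf13b.

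The study profiled BL/6 and SM/J mice, 2 inbred strains, at 12 and 20 months of age with droplet-based 10x Genomics 3′ single-cell RNA sequencing. No engineered allele and no treatment is named for any group. Blood came from the heart, and mononuclear cells were taken over a Lymphoprep density gradient, with a slow spin against platelets and lysis of red cells, a preparation meant to leave granulocytes out. The labels list 1 gene expression sample per strain, holding both ages, and the deposited matrices split the cells by strain and age into 4 groups, each called a library here. Strain and gene expression sample cannot be told apart. Each library carries 3 cell-tag oligos, and cells with the same tag are called an aliquot; whether a tag stands for 1 animal is not stated. With 1 library per group there is no test between groups and no p-value. Levels are given as counts per 1000000 UMIs of the class (CPM) with exact Poisson 95% intervals in brackets, and ratios with exact conditional binomial 95% intervals, all of which cover counting error only. Because each molecule is counted once from its 3′ end, transcript length does not enter the CPM.

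After filtering, 11596 of 12299 deposited cells were kept (3398 and 3102 for BL/6 at 12 and 20 months, 2407 and 2689 for SM/J). Median depth was 4060, 4914, 4729 and 8837 UMIs per cell in the same order, so the SM/J library of 20 months was the deepest. A total of 8 cell barcodes occurred in more than 1 library, none of them within a strain. Cells were clustered without the 8 genes, without any other Tnfrsf or Tnfsf gene and without the other pathway genes read here, so the clusters do not fix the levels given here. A class named "X-like" was named from marker lists. The B cell-like class held 1890, 806, 1205 and 1620 cells (BL/6 at 12 and 20 months, then SM/J at 12 and 20 months, the order used throughout). Its summed B cell markers came to 7928, 8019, 6842 and 5887 CPM, and its summed T cell markers to between 8.3 and 31 CPM.

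BAFF-R binds BAFF and keeps mature B cells alive, mainly through the alternative NF-kB pathway in which TRAF3 holds back the kinase NIK (Map3k14). TACI binds both BAFF and APRIL and restrains B cell numbers, and BCMA supports long-lived plasma cells. CD40 receives help from T cells, CD30 is an activation receptor for the ligand Tnfsf8, and CD27 costimulates T cells. BAFF and APRIL are made largely by myeloid cells.

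The 250 bases before the RefSeq start sites (build GRCm38.p6, 5′ to 3′ on the gene's strand) are shown for 3 receptors whose RNA was spread differently over the B lineage: Tnfrsf13c over all B cell-like clusters and low in plasma cell-like cells, Tnfrsf17 in plasma cell-like cells, and Tnfrsf8 mainly in B cell-like clusters outside the follicular type. Tnfrsf13c lies at chr15:82224381-82224630 (minus strand), Tnfrsf17 at chr16:11313559-11313808 (plus strand) and Tnfrsf8 at chr4:145315165-145315414 (minus strand). None of these windows overlaps an annotated exon. Capitals mark the match to the AP-1 motif, and a window all in lower case held no searched motif.
Tnfrsf13c: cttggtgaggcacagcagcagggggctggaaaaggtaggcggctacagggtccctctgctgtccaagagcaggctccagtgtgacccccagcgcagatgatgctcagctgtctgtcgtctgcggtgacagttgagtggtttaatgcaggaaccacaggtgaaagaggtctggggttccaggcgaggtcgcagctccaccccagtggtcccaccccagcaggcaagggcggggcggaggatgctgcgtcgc
Tnfrsf17: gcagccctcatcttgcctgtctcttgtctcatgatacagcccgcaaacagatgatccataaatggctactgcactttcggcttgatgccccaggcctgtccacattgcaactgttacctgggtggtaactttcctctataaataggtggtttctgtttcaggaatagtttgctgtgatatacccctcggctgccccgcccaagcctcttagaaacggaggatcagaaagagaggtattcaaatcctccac
Tnfrsf8: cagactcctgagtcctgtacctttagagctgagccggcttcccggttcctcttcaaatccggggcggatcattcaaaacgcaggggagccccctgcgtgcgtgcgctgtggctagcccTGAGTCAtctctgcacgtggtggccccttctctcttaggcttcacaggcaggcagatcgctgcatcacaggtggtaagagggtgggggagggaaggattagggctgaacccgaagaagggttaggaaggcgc
A set of 5 motifs was searched on both strands, overlapping matches allowed, in 8 windows of 7 of the genes (Tnfsf13b has 2 windows; Cd40 had no entry). The AP-1 motif TGANTCA was in 3 of them, 132 bases before the Tnfrsf8 start, 133 before that of Tnfsf13 and 127 before 1 start of Tnfsf13b, each time as TGAGTCA. The Tnfsf13 window and this Tnfsf13b window each overlap 1 annotated exon, so their matches are not read as lying upstream of the gene. The other Tnfsf13b window overlaps no annotated exon and held no match. The AP-1 motif is in 6.75% of all 32817 windows of that length. None of the 8 windows held the NF-kB motif (GGG and TTCC around 3 bases of any kind; 4.65% of all windows), the EBF1 motif (TCCC and GGGA around 2 bases of any kind; 0.78%), the octamer ATTTGCAT (1.6%) or the PU.1 motif GAGGAAG (10.6%). A match is a description of letters and not of binding. GC content was 63.2% for Tnfrsf13c, 60% for Tnfrsf8 and 49.2% for Tnfrsf17, against a median of 52.4% over all windows.

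B cell-like cells held receptor RNA and little ligand RNA, while monocyte-like cells held both ligands together with Tnfrsf13b and Cd40. Over the 4 libraries together the B cell-like class had 152.9 CPM of Tnfrsf13b, 110 CPM of Tnfrsf13c, 31.2 CPM of Cd40, 29.3 CPM of Tnfrsf8 and 10.9 CPM of Cd27. The ligands were near the bottom of the range there, with 1.4 CPM of Tnfsf13 and 0.926 CPM of Tnfsf13b. Tnfrsf17 had 0.344 CPM in the same cells. Levels are per UMI of the class, so they do not follow the number of its cells. They are not RNA per cell either, since depth per cell differed between libraries and clusters.

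**Figure D1:**
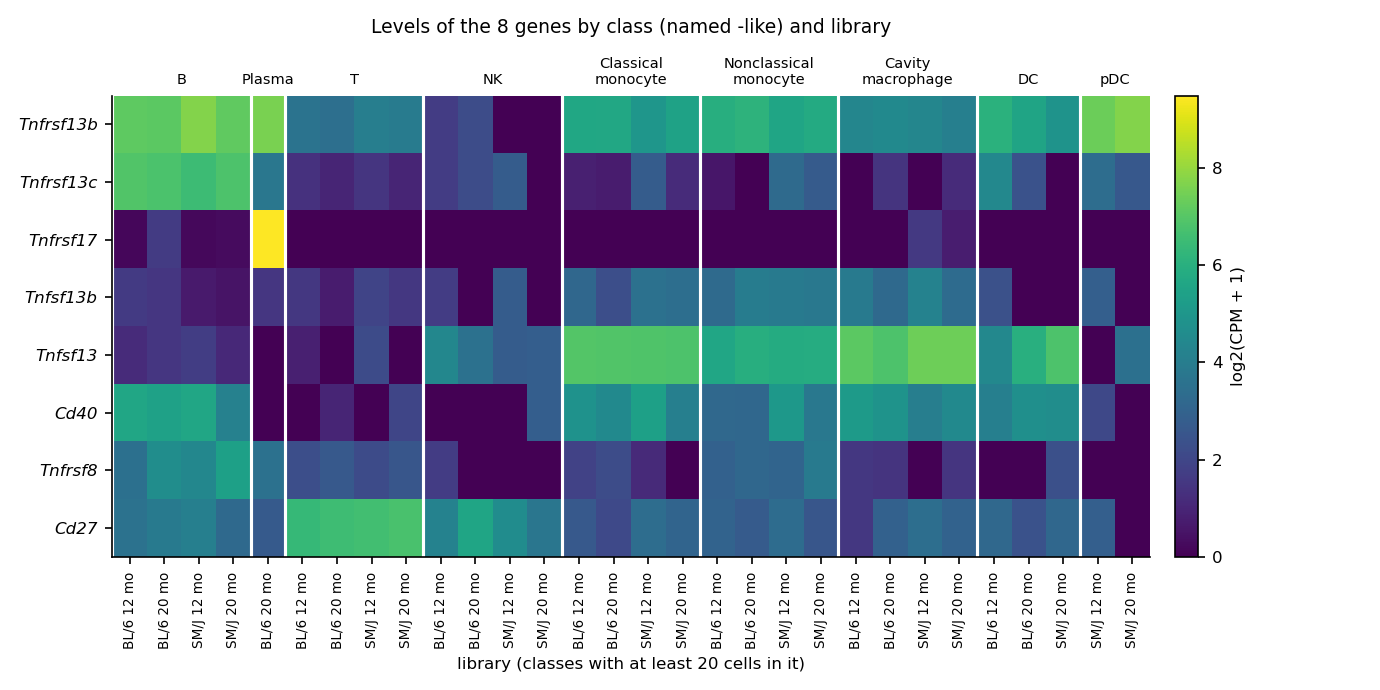
Levels of the 8 genes in each class and library, as log2(CPM + 1), for classes with at least 20 cells in the library. Tnfrsf13b and Tnfrsf13c are high in B cell-like cells, Tnfrsf17 in plasma cell-like cells, Tnfsf13 in monocyte-like and macrophage-like cells and Cd27 in T cell-like cells.

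Tnfrsf13b, on chromosome 11 at 61126755-61149372 (ENSMUSG00000010142, plus strand; mm10/GRCm38), was the most widely spread receptor. In B cell-like cells it had 139.4 CPM [131.4, 147.7], 135.7 CPM [123.3, 148.9], 209.4 CPM [198.4, 220.8] and 142.9 CPM [137.7, 148.3]. SM/J at 12 months stood above the other 3 libraries, whose intervals overlapped. Plasmacytoid dendritic cell-like cells had 196.8 CPM over all libraries (139 UMIs in 91 cells). The 46 plasma cell-like cells of BL/6 at 20 months had 192.3 CPM [157.6, 232.3]. Nonclassical monocyte-like cells followed with 61.4, 69, 46.8 and 54.2 CPM, and classical monocyte-like cells with 49.8, 50.2, 30.5 and 43.2 CPM. The 2 monocyte classes did not separate within each library beyond their counting intervals except in BL/6 at 20 months. Dendritic cell-like cells had 51.6 CPM, body-cavity macrophage-like cells 17 CPM, T cell-like cells 12.1 CPM and NK cell-like cells 1.87 CPM over all libraries. B cell-like cells held 71.6%, 33.5%, 79.9% and 91% of the Tnfrsf13b UMIs of their libraries, so in BL/6 at 20 months most of this RNA lay outside them.

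Tnfrsf13c, on chromosome 15 at 82221743-82224369 (ENSMUSG00000068105, minus strand), lay mostly in B cell-like cells. It had 118.8, 109.6, 89.2 and 113.3 CPM there, from 973, 357, 579 and 2249 UMIs, with SM/J at 12 months the lowest. T cell-like cells had 1.31 CPM and classical monocyte-like cells 1.23 CPM over all libraries. The B cell-like class held 89.8%, 66.1%, 83.8% and 98.7% of its UMIs. In BL/6 at 20 months another 30.2% lay in unnamed clusters, chiefly cluster 2, a B-lineage cluster. In the nonclassical monocyte-like class, SM/J at 12 months had 22 of its 27 Tnfrsf13c UMIs in the 38 cells of cluster 23, which also carried B cell markers (5383 CPM summed).

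Tnfrsf17, on chromosome 16 at 11313812-11320074 (ENSMUSG00000022496, plus strand), was concentrated in plasma cell-like cells. BL/6 at 20 months had 400 Tnfrsf17 UMIs in 46 such cells, which is 718.7 CPM [650, 792.7]. The RNA was found in 40 of the 46 cells, with a median of 7.5 and a highest value of 27 UMIs per cell. Its 3 aliquots held 9, 22 and 15 of the cells and had 974, 689 and 599 CPM. The other libraries had only 3 plasma cell-like cells each, with 20, 16 and 1 Tnfrsf17 UMIs. No age or strain comparison of these cells was made at such numbers. Outside the plasma cell-like class, 16 of 11541 cells had a Tnfrsf17 UMI (0.139%, Clopper-Pearson 95% interval 0.0793 to 0.225%). One of them, a B cell-like cell of cluster 7 in BL/6 at 20 months, held 6 of these 21 UMIs, and the other 15 cells had 1 each. The plasma cell-like cells of BL/6 at 20 months also had 107 UMIs of Tnfrsf13b but 7 of Tnfrsf13c (12.6 CPM) and 0 of Cd40.

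Cd40, on chromosome 2 at 165055627-165072948 (ENSMUSG00000017652, plus strand), was shared between B cell-like and myeloid cells. B cell-like cells had 48.6, 41.7, 47.8 and 16.8 CPM, and only SM/J at 20 months stood apart. Classical monocyte-like cells had 27.8, 21.9, 41 and 16.1 CPM, and body-cavity macrophage-like cells 34.8, 28.7, 15.6 and 21.9 CPM. Nonclassical monocyte-like cells had 8.15 and 7.93 CPM in BL/6 but 32 and 12.9 CPM in SM/J. T cell-like cells had 0.71 CPM over all libraries.

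Tnfrsf8, on chromosome 4 at 145267137-145315164 (ENSMUSG00000028602, minus strand), varied more between libraries than the other 4 receptors with at least 50 UMIs in B cell-like cells of each pair compared. Its levels there were 10.3, 23.9, 19.9 and 41.1 CPM, from 84, 78, 129 and 815 UMIs. The aliquots ran 11.8, 10.1 and 8.89 CPM in BL/6 at 12 months and 19.7, 30.8 and 23.4 CPM at 20 months. In SM/J they ran 24.4, 17.8 and 17.6 CPM at 12 months and 42.2, 38.1 and 43.4 CPM at 20 months. The 2 ages did not overlap in either strain. Nonclassical monocyte-like cells had 6.71, 7.93, 7.42 and 13.7 CPM, and T cell-like cells 4.41 CPM over all libraries.

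Cd27, on chromosome 6 at 125232622-125237010 (ENSMUSG00000030336, minus strand), was the only receptor of the 8 genes whose highest class level was in T cell-like cells. These had 81.8, 92.8, 97.9 and 107.6 CPM, with overlapping intervals between neighbours in that order. Among the T cell-like clusters the pooled level was 121.7 CPM in cluster 9, 92.4 CPM in cluster 14, 85.4 CPM in cluster 12 and 59.4 CPM in cluster 13. NK cell-like cells had 25.2 CPM. B cell-like cells had 10.9, 14.1, 16.2 and 8.57 CPM. Cd27 overlaps Vamp1 and Tnfsf13 overlaps Tnfsf13os, both of which are counted genes, and the strand setting of the counting was not found in the labels or headers; reads of these pairs may not be separable.

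**Figure D2:**
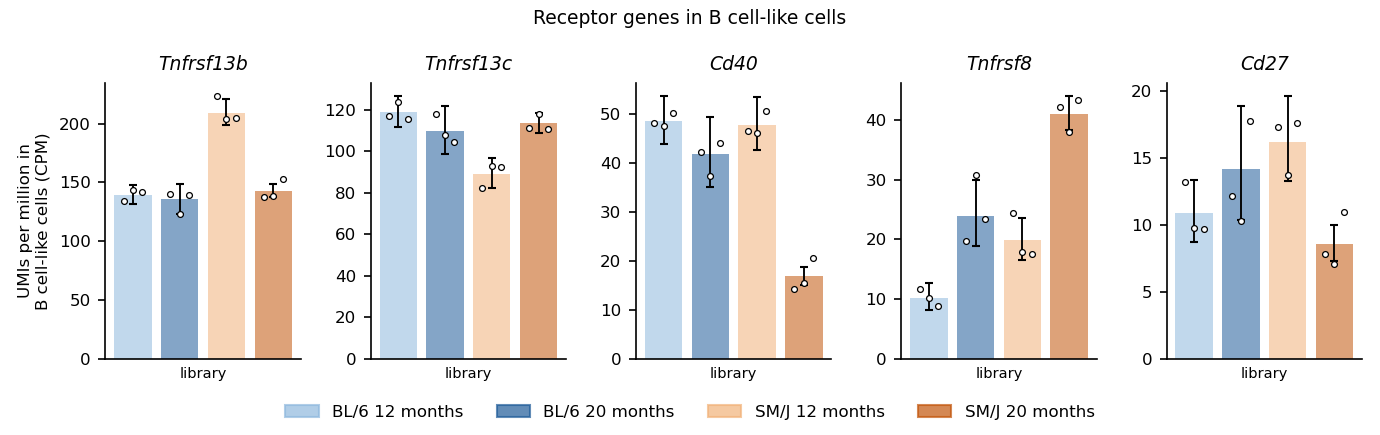
Levels in CPM of 5 receptors in B cell-like cells of each library; bars are pooled levels with Poisson 95% intervals and points are the 3 aliquots. Tnfrsf8 is higher at 20 than at 12 months in both strains, and Cd40 per UMI is low in SM/J at 20 months alone.

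The ligand APRIL (Tnfsf13, chromosome 11 at 69682846-69685784, ENSMUSG00000089669, minus strand) was a myeloid transcript. Classical monocyte-like cells had 124, 120.9, 117.2 and 113.6 CPM, from 326, 563, 100 and 92 UMIs, and the 12 aliquots spanned 91.9 to 134.3 CPM. Body-cavity macrophage-like cells, named from markers of resident macrophages of the body cavities, had 135.1, 113, 165.6 and 167.2 CPM. Nonclassical monocyte-like cells were lower, at 48.4, 60.2, 55.8 and 58.2 CPM. Dendritic cell-like cells had 64.3 CPM and NK cell-like cells 13.1 CPM over all libraries. The level was similar across libraries in the classical and in the nonclassical monocyte-like class. In body-cavity macrophage-like cells it was higher in SM/J (165.6 and 167.2 CPM) than in BL/6 (135.1 and 113 CPM). The class that held the largest share of the RNA was not the same in every library. Classical monocyte-like cells held 62%, 58.8%, 25.9% and 7.8% of the Tnfsf13 UMIs. Nonclassical monocyte-like cells held 19.2%, 29.3%, 44.8% and 6.1%, and were the main holder in SM/J at 12 months. Body-cavity macrophage-like cells held 13.3%, 7%, 22% and 81.4%, and they numbered 30, 38, 35 and 398 cells. Resident macrophages of the body cavities are not a usual population of blood, and how these cells came into the sample was not tested.

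The ligand BAFF (Tnfsf13b, chromosome 8 at 10006467-10039072, ENSMUSG00000031497, plus strand) was the scarcest of the 8 genes. Nonclassical monocyte-like cells had 8.63, 14.8, 14.2 and 12.9 CPM, from 18, 69, 44 and 16 UMIs. Classical monocyte-like cells had 7.99, 3.87, 10.5 and 9.88 CPM, and body-cavity macrophage-like cells 13.5, 8.44, 17.5 and 8.92 CPM. Only in BL/6 at 20 months did the intervals of the 2 monocyte classes separate, with 14.8 CPM in the nonclassical class against 3.87 CPM. In SM/J at 20 months the body-cavity macrophage-like cells held 60% of the BAFF UMIs.

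**Figure D3:**
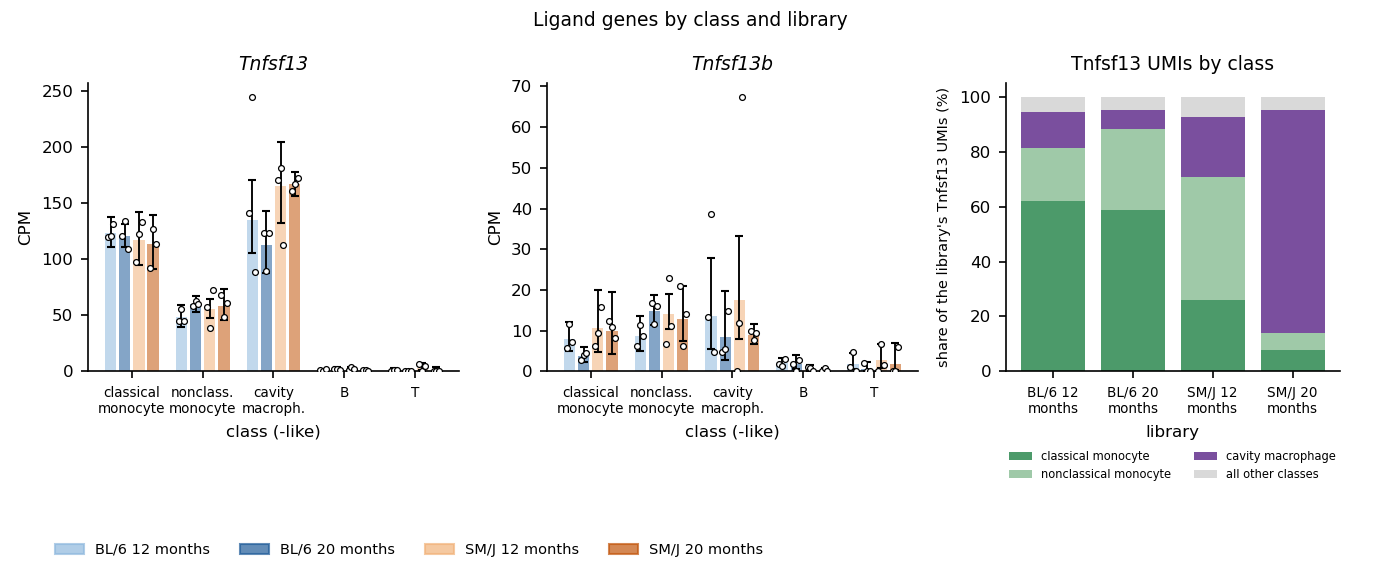
Levels in CPM of Tnfsf13 and Tnfsf13b by class and library (bars, with Poisson 95% intervals; points are aliquots), and the share of each library's Tnfsf13 UMIs held by each class. Tnfsf13 is similar between libraries in the 2 monocyte classes and higher in SM/J than in BL/6 in body-cavity macrophage-like cells. Its main holder is the classical monocyte-like class in BL/6, the nonclassical class in SM/J at 12 months and the body-cavity macrophage-like class in SM/J at 20 months.

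Within the B lineage the receptors did not move together. Clusters 0 and 1 (mostly BL/6) and 3 (mostly SM/J) were follicular-like, clusters 22, 24 and 27 were B-1-like, cluster 19 was cycling, and cluster 7 was B cell-like without a subset name. In cluster 7 the B-1 marker list came second, with a mean relative level of 0.6045 against 0.6157 for its first list. Cluster 27 had 869 of its 884 cells, and cluster 19 had 67 of its 71 cells, in SM/J at 20 months. Cluster 2 stayed unnamed because markers of another class led it; its highest B subset list was the transitional one. Different clusters therefore made up most of the B cell-like class in each library: 0 and 1 in BL/6, 3 and 24 in the younger SM/J library, and 27 in the older. The transitional and B-1 names rest on marker lists and not on surface protein.

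Tnfrsf13b was highest in the B-1-like cluster 24 and in cluster 2. Cluster 24 had 267.7 CPM [250.3, 285.9] in SM/J at 12 months and 232.8 CPM at 20 months, which was 1.69 times [1.48, 1.93] and 1.63 times [1.34, 1.99] the follicular-like clusters of the same library. The BL/6 libraries had 216.7 and 217.2 CPM in cluster 2 and the younger SM/J library 255.8 CPM, with ratios between 1.59 and 1.65. The B-1-like label did not carry this level with it, since cluster 22 had 127.2 and 141.1 CPM and cluster 27 had 133 CPM. The follicular-like clusters lay between 128.5 and 159.7 CPM.

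Tnfrsf13c was also highest in cluster 2, at 223.7, 290.2 and 271.6 CPM in its 3 larger libraries. In BL/6 at 20 months that was 2.31 times [1.9, 2.8] the follicular-like level. Cluster 24, high in Tnfrsf13b, was low in Tnfrsf13c at 61.5 and 82.6 CPM. Follicular-like cells exceeded cluster 24 by 2.4 times [2, 2.88] at 12 months in SM/J. At 20 months they stood at 1.3 times [0.996, 1.7] its level, which was not beyond counting error. They exceeded cluster 22 by 3.28 times [2.35, 4.68] and 2.67 times [1.93, 3.73]. In BL/6 they exceeded cluster 7 by 1.38 times [1.17, 1.63] and 2.08 times [1.51, 2.94]. Cluster 27 had 120.5 CPM and did not differ from the follicular-like level of its library beyond counting error (ratio 1.12 [0.926, 1.37]). Over plasma cell-like cells the follicular-like excess was 10 times [4.79, 25.1].

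Cd40 was low in cluster 27, at 11.2 CPM, and in the cycling cluster 19, at 14.3 CPM. The follicular-like level in the same library was 4.59 times [3.29, 6.32] that of cluster 27. These clusters were also deep, with medians of 12541.5 and 27809 UMIs per cell. Per 100 cells rather than in CPM, cluster 27 had 16.7 Cd40 UMIs, and the follicular-like clusters had between 15 and 23. On that scale the difference was not seen, whereas Tnfrsf13b had 199 UMIs per 100 cells in cluster 27 against 43 to 58 in follicular-like cells. Cluster 7 had 30.5 and 16.8 CPM of Cd40 in BL/6, below the follicular-like level by 1.81 times [1.38, 2.42] and 3.01 times [1.66, 5.98].

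Tnfrsf8 was lower in follicular-like cells than in the other B cell-like clusters with at least 30 cells in the library. Cluster 0 had 2 UMIs (0.723 CPM) in BL/6 at 12 months and 14 UMIs (11.9 CPM) at 20 months, and cluster 3 had 1 and 4 UMIs in SM/J. Cluster 2 had 1, 1 and 0 UMIs in its 3 larger libraries. Cluster 7 held 35.4 and 81.4 CPM in BL/6, which was 21.4 times [11, 46.5] and 12.5 times [7.07, 23.2] the follicular-like level. In SM/J, cluster 22 had 51.8 and 40.2 CPM, cluster 24 had 20.9 and 62.8 CPM, cluster 27 had 37.7 CPM and cluster 19 had 60.7 CPM. At 20 months clusters 24 and 27 exceeded the follicular-like level by 16.5 times [6.23, 61.9] and 9.92 times [3.85, 36.5]. At 12 months the follicular-like reference was 1 UMI, and the ratio of cluster 24 was 42.1 with an interval from 7.31 to 1686. Cd27 ran the other way, with 6.88 and 1.4 CPM in cluster 7 against 12.4 and 18.4 CPM in the follicular-like clusters of BL/6. In SM/J the follicular-like level of Cd27 was 2.71 times [1.21, 7.14] and 2.94 times [1.27, 7.39] that of cluster 22 and 2.13 times [1.24, 3.49] that of cluster 27, while cluster 24 did not differ from it beyond counting error.

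**Figure D4:**
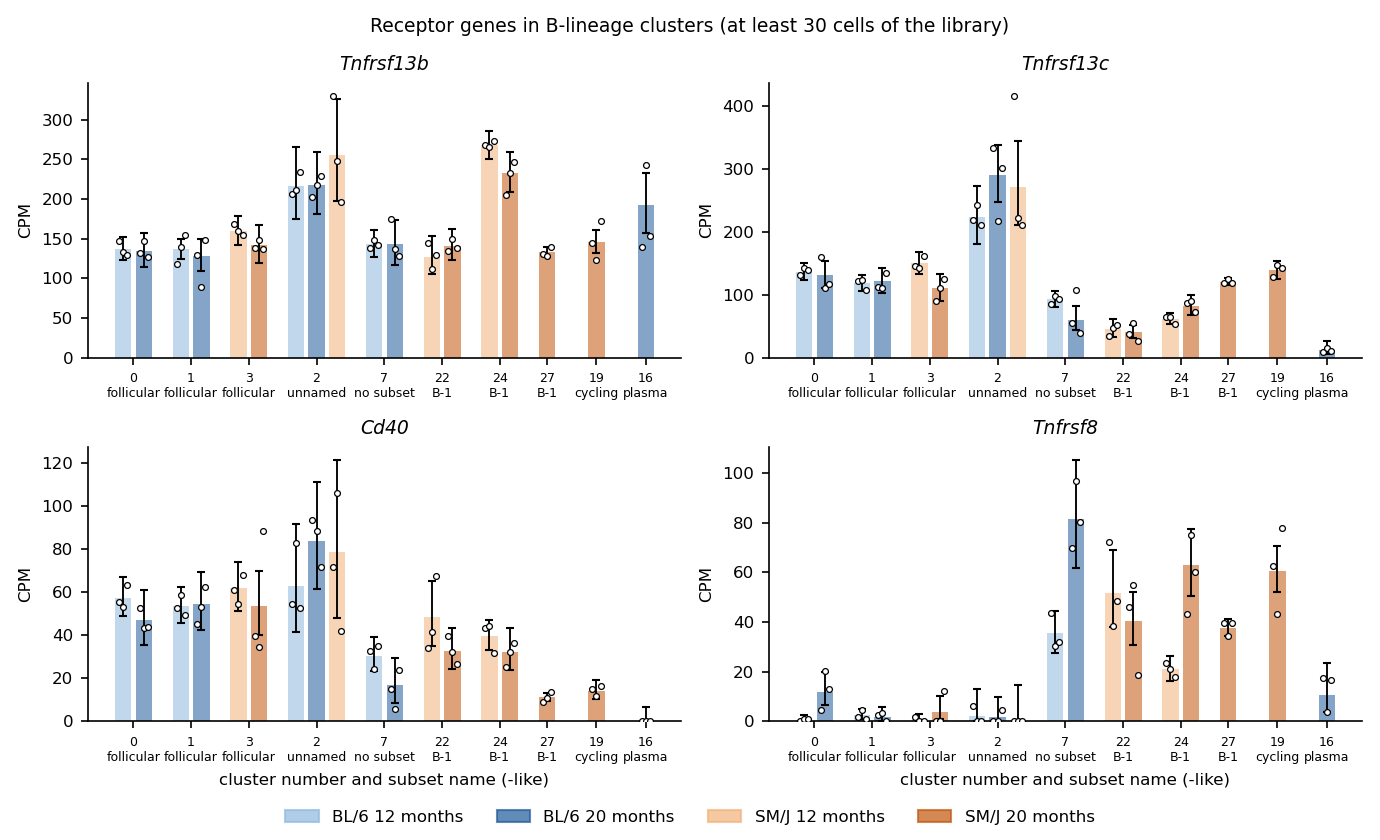
Levels in CPM of Tnfrsf13b, Tnfrsf13c, Cd40 and Tnfrsf8 in B-lineage clusters with at least 30 cells in the library; bars are pooled levels with Poisson 95% intervals and points are aliquots. Tnfrsf8 lies in clusters 7, 22, 24, 27 and 19 and is at most 3.96 CPM in the follicular-like clusters 0, 1 and 3 except for 11.9 CPM in cluster 0 of BL/6 at 20 months, and Cd40 is low in clusters 27 and 19.

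For comparisons between libraries, a gene with at least 50 UMIs over the pair was called when its CPM differed by more than 1.5-fold and no aliquot of the 1 library lay within the range of the other's aliquots. In B cell-like cells of BL/6 between 12 and 20 months, 1 of 5 members was called, Tnfrsf8, against 4.76% of all genes. It was higher at 20 months by 1.22 on the log2 scale [0.76, 1.69], or 2.34-fold; under a mitochondrial limit of 5% (0.92) and under a gate on transcripts in place of clusters (0.51), after thinning (1.08) and at a minimum of 200 UMIs it was not called. Tnfrsf13b (log2 difference −0.04 [−0.20, 0.12]) and Tnfrsf13c (−0.12 [−0.30, 0.06]) did not differ beyond counting error. Cd40 was 48.1, 47.4 and 50.2 CPM in the aliquots of 12 months and 42.1, 37.2 and 44 CPM in those of 20 months, which did not overlap but differed by −0.22 [−0.51, 0.07]. Cd27 differed by 0.38 [−0.17, 0.91].

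In SM/J, 3 of 5 members were called between 12 and 20 months in B cell-like cells, against 29.1% of all genes. Cd40 fell by 1.5 on the log2 scale [−1.73, −1.28], to a 2.84-fold lower level, with aliquots of 46.5, 46.2 and 50.5 CPM at 12 months and 14.3, 15.6 and 20.6 CPM at 20 months. Its UMIs were 310 in 1205 cells at 12 months and 334 in 1620 cells at 20 months, so the fall per cell was smaller than in CPM. Tnfrsf8 rose by 1.05 [0.78, 1.33], or 2.07-fold. Cd27 fell by 0.92 [−1.28, −0.55], and was not called under a mitochondrial limit of 5% (−0.53), after thinning (−1.08) or at a 2-fold rule. Tnfrsf13b was 223.3, 203.8 and 204.3 CPM in the aliquots of 12 months and 137.8, 138.6 and 152.5 CPM at 20 months, a 1.46-fold lower level that did not pass the fold rule; it passed without aliquot 3. Tnfrsf13c was higher by 0.35 [0.21, 0.48] with aliquots that did not overlap. Without the cycling cluster 19 and cluster 27, which were almost wholly in the 1 library, Cd40 was −0.38, Cd27 −0.44 and Tnfrsf13c −0.28, and only Tnfrsf8 stayed called, at 1.02. With these clusters out, 7.25% of all genes were called.

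The strain comparison at 12 months called 2 of 5 members in B cell-like cells, against 26.2% of all genes. Tnfrsf13b was higher in SM/J by 0.59 [0.47, 0.70], or 1.5-fold, which is at the edge of the fold rule, and it was not called without aliquot 1, under a mitochondrial limit of 5%, with the members among the variable genes, with cluster 2 counted in, after thinning or at a 2-fold rule. Tnfrsf8 was higher in SM/J by 0.96 [0.55, 1.37], and was not called after thinning (0.92) or at a 2-fold rule. Tnfrsf13c was lower in SM/J by −0.41 [−0.56, −0.26] on the log2 scale, with aliquots of 116.9, 123.8 and 115.5 CPM in BL/6 and 82.4, 92.8 and 92.2 CPM in SM/J. Cd27 was 1.49-fold higher in SM/J (0.57 [0.15, 1.00]), just under the rule, and it was called under 8 of the alternatives, TMM scaling among them. Cd40 differed by −0.02, and TMM scaling turns that sign. At 20 months 2 of 5 members were called, against 50.2% of all genes. Cd40 was lower in SM/J by −1.31 [−1.60, −1.01] and Tnfrsf8 higher by 0.78 [0.44, 1.13] (not called at a 2-fold rule), while the differences of Tnfrsf13b (0.07) and Tnfrsf13c (0.05) were small. The Cd40 difference holds per UMI only. With 136 UMIs in 806 BL/6 cells and 334 in 1620 SM/J cells, SM/J was not lower per cell. Cd27 was 1.65-fold lower in SM/J (−0.72 [−1.20, −0.22]) with aliquots that overlapped, and it was called under 6 of the alternatives. Without clusters 19 and 27 the Cd40 difference was −0.19, Tnfrsf13c was lower in SM/J by −0.61 and passed the rule, and Tnfrsf13b was 0.36. With 5 members measured, these counts are not read as particular to the members. The B cell-like comparisons share libraries, and whether the age difference is the same in both strains was not tested.

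TMM scaling shifted the log2 differences of B cell-like cells by −0.068, 0.165, 0.056 and 0.288 in the order of these 4 comparisons. The share of called genes that were higher went from 51.2% to 37.9% in the BL/6 age comparison, from 47.4% to 65.3% in the SM/J age comparison and from 43.6% to 63.3% in the strain comparison at 20 months. Every call on a member named above kept its direction under it. Beside the members, the summed plasma cell markers of the B cell-like class went 643, 654, 1268 and 1901 CPM, its plasmacytoid dendritic cell markers 438, 470, 793 and 840 CPM, its dendritic cell markers 18.9, 17.5, 27.4 and 74.8 CPM, its basophil markers 1.95, 2.15, 16.9 and 50.7 CPM, its nonclassical monocyte markers 178, 159, 112 and 83.3 CPM, its platelet markers 79.1, 87.5, 48.2 and 22.5 CPM, and the median depth of its cells 3645, 3429.5, 4386 and 9753.5 UMIs; their part in the differences was not tested.

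The age difference of Tnfrsf8 was also present inside single clusters. In cluster 7 of BL/6 it was 1.20 [0.68, 1.72], and in cluster 24 of SM/J 1.59 [1.12, 2.06], in both cases with aliquots that did not overlap. Cluster 22 of SM/J had −0.37 [−0.95, 0.22] with overlapping aliquots. Cd40 within SM/J clusters was −0.29 [−0.81, 0.20] in cluster 24, −0.57 [−1.19, 0.06] in cluster 22 and −0.21 [−0.71, 0.26] in cluster 3. None of these 3 reached the class difference, and each interval held 0. Tnfrsf13c took opposite signs in 2 SM/J clusters, 0.42 [0.08, 0.76] in cluster 24 and −0.45 [−0.78, −0.13] in cluster 3, without overlap of aliquots in either. Tnfrsf13b was −0.20 [−0.39, −0.02] in cluster 24 and 0.00 in cluster 7.

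**Figure D5:**
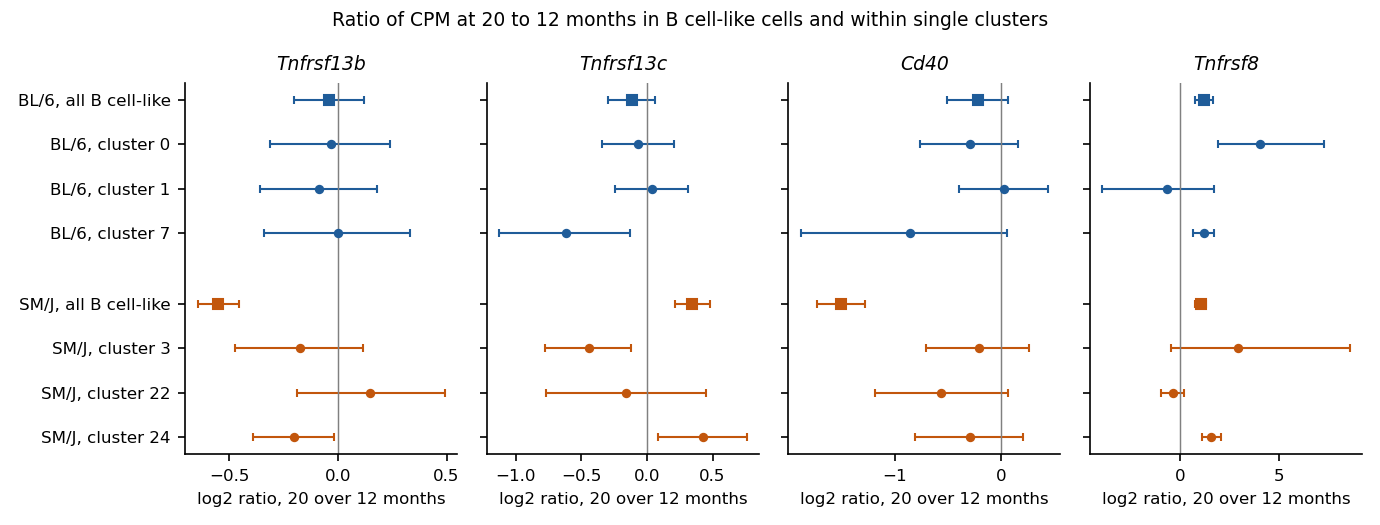
Log2 ratio of 20 over 12 months for the receptors in the B cell-like class (squares) and within single clusters (circles), with 95% counting intervals. Tnfrsf8 is above 0 in the class of both strains and in clusters 7 and 24, and the class difference of Cd40 in SM/J is larger than in any of its clusters.

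Shares of cells with a UMI were compared after thinning each cell to 1000 UMIs, which left out 77, 96, 68 and 24 cells. Tnfrsf8 was then found in 0.53%, 1.12%, 1% and 2.72% of B cell-like cells and in 0 to 0.43% of T cell-like cells, whose median depths were 5119, 5203, 4319.5 and 4011 UMIs. Unthinned, the B cell-like shares were 3.07%, 4.84%, 7.05% and 24.4%. Tnfrsf13b was found in 13.7%, 13.7%, 16.5% and 13.8% of thinned B cell-like cells against 1.3 to 2% of T cell-like cells. Tnfrsf13c was found in 11.1%, 14.9%, 10.2% and 9.95% against 0 to 0.28%, and since its BL/6 shares run against its CPM no order is read from them. Cd40 was found in 4.8%, 4.2%, 4.5% and 2.5% against 0 to 0.43%.

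In monocyte-like and T cell-like cells few members were called. The monocyte-like classes were made of different clusters in each strain: at 12 months the classical class was cluster 5 in BL/6 (284 cells) and mostly cluster 26 in SM/J (111 cells), and the nonclassical class was mostly cluster 6 in BL/6 (309 cells) and cluster 25 in SM/J (367 cells). Classical monocyte-like cells had 0 of 3 called in the BL/6 age comparison, against 9.24% of all genes. Between strains at 12 months 1 of 3 was called, against 15.9%: Tnfrsf13b had 63.3, 41.6 and 40.3 CPM in BL/6 aliquots and 30.6, 28.3 and 31.8 CPM in SM/J, a difference of −0.71 [−1.38, −0.09]. Without aliquot 1 it was −0.43 and not called, and Cd40 was called instead. In the classical class at 12 months erythroid markers summed to 51.7 CPM in BL/6 and 137.1 CPM in SM/J and platelet markers to 203.1 and 98.4 CPM, and their part was not tested. In nonclassical monocyte-like cells of BL/6, 1 of 5 was called with age, against 8.7% of all genes. This was BAFF (Tnfsf13b), with aliquots of 6.19, 11.5 and 8.69 CPM at 12 months and 16.8, 11.6 and 16 CPM at 20 months and a difference of 0.78 [0.01, 1.61], resting on 18 and 69 UMIs. The call was lost under TMM scaling, a mitochondrial limit of 5%, doublets kept, resolution 2.0 and without aliquot 1 (0.44), and thinning turned the difference to −0.39. In SM/J 1 of 4 was called with age, against 5.67%: Cd40 had 29.5, 40.4 and 25.1 CPM at 12 months and 14.9, 14.8 and 9.33 CPM at 20 months, a difference of −1.30 [−2.17, −0.53]. The strain comparison at 12 months called 1 of 4, against 17.4%, and this too was Cd40, 3.92-fold [2.33, 7] higher in SM/J. Both Cd40 calls were lost after thinning and at a minimum of 200 UMIs. At 20 months 0 of 5 were called, against 13.3%. B cell markers in the nonclassical class summed to 53.7, 47.4, 1151 and 504 CPM, chiefly through clusters 23 and 25; cluster 25 had 724 CPM of them at 12 months against 53.3 CPM in cluster 6. Erythroid markers in the nonclassical class summed to 52.7, 1170, 2263 and 80.8 CPM, so they moved with each of its 3 called differences. Classical monocyte markers in the nonclassical class summed to 6954, 6762, 2612 and 3132 CPM, and dendritic cell markers to 73.8, 81.3, 136.9 and 142.3 CPM. The part of these marker lists in the BAFF and Cd40 differences was not tested. Without cluster 23 the Cd40 differences were −1.26 with age and 1.89 between strains at 12 months, both still called. T cell-like cells had 0 members called of 2, 1, 2 and 1 that could be, against 9.18%, 6.14%, 19.4% and 13.4% of all genes in the 2 age and 2 strain comparisons. Within the T cell-like cluster 9 of BL/6, Cd27 was 87.7 CPM at 12 and 140 CPM at 20 months, a difference of 0.68 [0.17, 1.19] without overlap of aliquots.

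TMM scaling moved the share of called genes that were higher in several of these comparisons. It went from 59.9% to 34.1% in classical monocyte-like cells between strains at 12 months. In nonclassical monocyte-like cells it went from 66.6% to 47.1% between strains at 12 months and from 50.3% to 34.6% at 20 months. In T cell-like cells it went from 28.3% to 43.2% and from 71.8% to 44.4% with age in BL/6 and SM/J, and from 22.8% to 38.4% and from 47.2% to 30.8% between strains. The shift was −0.163 in the first of these classes and between −0.139 and 0.02 in the nonclassical class.

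A list of 60 other genes of the pathway, among them TNF family ligands and receptors, TRAF and NF-kB signalling genes and survival genes, was read in B cell-like cells by the same rule. In the BL/6 age comparison 1 of 40 measured genes was called, against 4.76% of all genes: Bcl2a1d, a survival factor of the BCL2 family, at 12.7 and 6.75 CPM (log2 −0.91). In the SM/J age comparison 23 of 48 were called, 7 higher and 16 lower at 20 months, against 29.1% of all genes. All 12 called of 26 signalling genes were lower, with a median of −0.56 over the 26 against −0.06 over all genes. Lower at 20 months were Lta (lymphotoxin alpha), from 6.16 to 0.504 CPM, Ltb (lymphotoxin beta), from 636.5 to 187.1 CPM, and Tnfsf8, the ligand of CD30, from 36.1 to 12.4 CPM. Higher at 20 months were Ltbr, the lymphotoxin receptor, with 2 and 59 UMIs (log2 3.27 [1.35, 6.35]), and Tnfsf10 (TRAIL) with 3 and 57 UMIs (2.64 [1.02, 4.96]). Without clusters 19 and 27, 5 of 41 list genes were called, against 7.25% of all genes, with 1 of 26 signalling genes among them and a signalling median of −0.14. Ltb (−1.25) and Tnfsf8 (−2.68) stayed called there, and Lta, Ltbr and Tnfsf10 had too few UMIs to be read. Tnfrsf8 (CD30) was thus called higher and its ligand Tnfsf8 lower at 20 months with and without these clusters.

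Between strains at 12 months 13 of 43 of the pathway genes were called, 7 higher and 6 lower in SM/J, against 26.2% of all genes, a share close to the list's own. Tnfsf8 was higher in SM/J, at 2.2 and 36.1 CPM, as were Tnf, at 1.59 and 8.01 CPM, and the survival kinase Pim1, at 97.9 and 270.9 CPM. Tnfrsf1b (TNF receptor 2) was lower at 30.4 and 7.86 CPM, and Map3k14 (NIK) at 45.9 and 18.8 CPM. At 20 months 29 of 46 were called, 9 higher and 20 lower in SM/J, against 50.2% of all genes, including 17 of 26 signalling genes of which 16 were lower (median −0.92 over the 26 against −0.17 over all genes). Traf5 was 130.2 and 43.4 CPM, Birc3 (cIAP2) 368.4 and 123.2 CPM and the NF-kB inhibitor Tnfaip3 (A20) 56.5 and 19.9 CPM, all lower in SM/J. Pim1 was again higher, at 113.6 and 336.2 CPM, and Tnfsf8 at 1.53 and 12.4 CPM. Without clusters 19 and 27, 12 of 39 were called, against 27.3% of all genes, with 8 of 26 signalling genes, all lower; Traf5 (−0.74), Birc3 (−0.73) and Pim1 (0.96) stayed called, Tnfaip3 (−0.42) did not, and Tnfsf8 had too few UMIs to be read.

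The genes with the most similar levels were found over 27 class and library profiles and 11320 genes by Pearson correlation of log2(CPM + 1), as a description, since profiles of a library share its cells and depth. Tnfrsf13c was most like Blnk (0.96), the B cell linker adaptor, and Spib (0.96), a B cell and plasmacytoid transcription factor. Tnfrsf13b was most like N4bp2 and Myo5a (both 0.94), and Cd40 most like Vav2 (0.91) and Cd74 (0.90), the invariant chain of MHC class II. Tnfsf13 was most like Ctbp2 (0.93) and Cd300lb (0.92), a myeloid receptor, and Tnfsf13b most like Ear2 (0.84), a ribonuclease of the myeloid lineage. Cd27 was most like Lef1 (0.90), a T cell transcription factor. The best matches of Tnfrsf17, led by Dnajb9 (0.72), a chaperone of the endoplasmic reticulum, and of Tnfrsf8, led by Gm10790 (0.76), were weaker. A profile needed at least 50 cells, so none of the profiles was of plasma cell-like cells. The Tnfrsf17 matches rest on its few UMIs in other classes and do not describe plasma cell-like cells. Between the 8 genes the values were 0.83 for Tnfrsf13b and Cd40, 0.68 for Tnfrsf13b and Tnfrsf13c, 0.65 for Tnfrsf13c and Cd40, 0.62 for the 2 ligands and −0.54 for Tnfsf13 and Cd27.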

How the data were processed

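Values are raw counts of UMIs for each gene in each cell, as the authors deposited them; the file headers name Cell Ranger 7.0.1. The submitters' processing notes name mm10, Cell Ranger and Seurat 4.3.0; the annotation version and the strand of counting were not found in the labels or headers. Coordinates are those of GENCODE M21, in which 32235 of the 32285 gene identifiers (99.8%) were found. Total counts per library were 18234645, 19466469, 14250603 and 30627357 UMIs.

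Cells were kept from 500 UMIs and 200 genes upward if no more than 10% of their UMIs were mitochondrial. Scrublet, at an expected rate of 0.06, called 125 doublets (0.775 to 1.34% of a library), which were left out. Clustering used scanpy 1.11.5, 2000 variable genes, 30 principal components, 15 neighbours and Leiden resolution 1.0 (seed 0), and gave 28 clusters, of which 2 stayed unnamed. Counts were summed over the cells of a class or cluster in each library, because cells are not replicates. A count of 0 allows up to 3 counts. R 4.3.3 with edgeR 4.0.16 served for TMM scaling only. The sums, intervals and the call rule were tested on simulated Poisson counts. Those counts hold counting error only, so the test does not cover differences between aliquots or runs.

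The 8 genes, the marker lists and the pathway list were chosen with earlier results of these data known. Every member is named. Of the other pathway genes, up to 5 called genes with the largest log2 difference were named per comparison, and of the genes most like a member those among its 3 highest correlations. Alternatives covered scaling, the count minimum, the fold, the mitochondrial limit, doublets, resolution, thinning, the make-up of the B cell-like class, a gate on transcripts and each aliquot left out; the nonclassical class without cluster 23, and the pathway list without clusters 19 and 27, were added after seeing the data.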

Additional observations from a re-analysis of the deposited data

How the results depend on the processing

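No paired analysis was possible because each strain and age is 1 library. The age difference of Tnfrsf8 in B cell-like cells kept its sign under each alternative, with log2 values from 0.51 to 1.46 in BL/6 and from 0.81 to 1.51 in SM/J. That of Cd40 in SM/J ran from −1.64 to −0.38. The call on Tnfrsf8 in BL/6 was lost with a mitochondrial limit of 5% and with a gate on transcripts, while Cd27 or Tnfrsf17 was called in its place. The call on Tnfrsf13b between strains at 12 months was lost with a mitochondrial limit of 5%, with the members among the variable genes, with cluster 2 counted in and without aliquot 1.

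Numbers of members called in B cell-like cells moved as follows. With age in BL/6 (1 called) the number was 0 at 200 UMIs, 0 after thinning and 1 to 2 with an aliquot left out. With age in SM/J (3 called) it was 1 without clusters 19 and 27. Cd27 was lost there also at a mitochondrial limit of 5%, after thinning and at a 2-fold rule, and Tnfrsf13b was gained without aliquot 3. Between strains at 12 months (2 called) it was 0 after thinning and 0 at a 2-fold rule, and at 20 months (2 called) it was 1 at a 2-fold rule. It was 3 at 12 months under TMM scaling, at 20 UMIs, without clusters 19 and 27, with the gate and without aliquot 2. At 20 months it was 3 with doublets kept, at resolution 2.0, with the members among the variable genes, with cluster 2 counted in, with the gate and without aliquot 2 or 3.

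In classical monocyte-like cells the number with age in BL/6 (0 called) was 1 at 20 UMIs, and between strains at 12 months (1 called) it was 0 at 200 UMIs, after thinning and at a 2-fold rule; without aliquot 1 Cd40 took the place of Tnfrsf13b. In nonclassical monocyte-like cells of BL/6 (1 called with age) it was 0 under TMM scaling, at 200 UMIs, at a mitochondrial limit of 5%, with doublets kept, at resolution 2.0, after thinning and at a 2-fold rule, and 0 to 1 with an aliquot left out. Thinning turned the BAFF difference there to −0.39. For age in SM/J (1 called) the number was 2 at 20 UMIs, 0 at 200 UMIs and 0 after thinning. Between strains at 12 months (1 called) it was 2 at 20 UMIs, 0 at 200 UMIs, 0 after thinning and 1 to 2 with an aliquot left out. At 20 months (0 called) it was 1 at a mitochondrial limit of 5% and 0 to 1 with an aliquot left out. The cause of these moves was not tested, except that a higher minimum leaves fewer genes to call. Thinning keeps few UMIs of these genes: it put 122 of 288 levels outside their counting intervals. A mitochondrial limit of 5% put 37 of 256 outside, resolution 2.0 put 17 of 288, a limit of 20% put 7 of 280 and doublets kept 4 of 296.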
